A study of Mus musculus with 8 samples.

Results

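The Mir106b-93-25 cluster is a group of 3 microRNA (miRNA) genes, Mir106b, Mir93 and Mir25, that lie close together inside Mcm7, the gene of a subunit of the DNA replication helicase. They were taken by position, as the rows of the count tables that lie in a fixed window of chromosome 5 (mm10) inside Mcm7. The rule uses position alone, but the cluster was picked with earlier results of these data known. This found 3 of the 2202 miRNA genes counted, and all 3 had enough counts to be among the 219 genes tested. The libraries hold small RNA of mouse spleen B cells with the genotype Ago2HA/HA, in which both copies of Ago2 encode an HA epitope. AGO2 is an Argonaute protein, the part of the silencing complex that holds a miRNA, and an antibody to HA precipitates it. The 8 libraries form 4 groups of 2 that share this genotype: input RNA and AGO2 immunoprecipitate (IP) of resting cells, and input and IP of cells activated in culture to proliferate. The labels used here give no stimulus, culture time, strain, age or sex, and do not say whether the 2 libraries of a group come from separate animals. The spread behind the p-values is that between these libraries, and it may be technical only. The B cells were enriched by removing cells that carry CD43. Cells without the epitope yielded no RNA in the IP, according to the labels, so the IPs of a cell state are compared with the inputs of that state.

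A miRNA is cut from a hairpin in a longer transcript and guides Argonaute to messenger RNAs, mainly through its seed, the bases 2 to 8 from its 5′ end. Mir106b, Mir93 and Mir25 are made from the Mcm7 transcript, and the cluster is a paralog of the Mir17-92 cluster and of the Mir106a-363 cluster on the X chromosome. Members of these clusters are known to lower inhibitors of the cell cycle and the pro-apoptotic protein Bim, and Mir17-92 is known for its part in B cell development and lymphoma. Mcm7 itself is a known target of the E2F transcription factors, which drive genes of DNA replication.

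The hairpins show how each feature was counted. The counts of a feature cover its whole hairpin, so the arms cannot be told apart. Each hairpin is given 5′ to 3′ with its annotated mature arms in capitals, from RefSeq (GRCm38.p6, the assembly of mm10).
Mir106b: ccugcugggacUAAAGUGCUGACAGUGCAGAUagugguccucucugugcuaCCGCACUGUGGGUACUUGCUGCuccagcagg
Mir93: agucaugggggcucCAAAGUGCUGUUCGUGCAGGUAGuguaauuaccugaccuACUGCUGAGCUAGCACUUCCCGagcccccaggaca
Mir25: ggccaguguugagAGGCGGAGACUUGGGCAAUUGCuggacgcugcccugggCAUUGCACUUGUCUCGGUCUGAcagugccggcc

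All 3 genes lie on the minus strand of chromosome 5 (mm10). Mir106b (ENSMUSG00000065514.1, 138165737 to 138165818, 82 nt) comes first in the transcript. Mir93 (ENSMUSG00000065527.1, 138165523 to 138165610, 88 nt) follows after a gap of 126 nt, and Mir25 (ENSMUSG00000065394.1, 138165321 to 138165404, 84 nt) after a further 118 nt. The cluster spans 498 nt of Mcm7 (138164583 to 138172111), whose intron it is known to occupy. The gene spans used here do not separate exons from introns, and no other RefSeq gene overlaps the cluster.

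The members belong to 2 seed families, which set the genes with which they can be compared. miR-106b-5p and miR-93-5p carry the seed AAAGUGC, shared with miRNAs of both paralogous clusters. The mature sequences are given with the seed in capitals.
miR-93-5p: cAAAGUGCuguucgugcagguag
miR-106b-5p: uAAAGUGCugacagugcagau
miR-17-5p: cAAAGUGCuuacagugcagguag
miR-20a-5p: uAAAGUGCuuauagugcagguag
miR-20b-5p: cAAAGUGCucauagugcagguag
miR-106a-5p: cAAAGUGCuaacagugcagguag

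miR-25-3p carries the seed AUUGCAC instead, which it shares with miR-92a-3p and others. Mir92-1 and Mir92-2 give the same miR-92a-3p, so their counts cannot be assigned to either copy with certainty.
miR-25-3p: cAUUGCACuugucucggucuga
miR-92a-3p: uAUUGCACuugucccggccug
miR-92b-3p: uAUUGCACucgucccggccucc
miR-32-5p: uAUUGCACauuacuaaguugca
miR-363-3p: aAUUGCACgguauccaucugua

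Within a seed family the members differ mainly in the middle and at the 3′ end. Counted from the 5′ end of miR-17-5p, miR-93-5p has U10G, A11U, C12U and A13C, 4 substitutions over 23 bases. Against the same reference, miR-106b-5p has C1U, U10G and G20A over the 21 bases it holds. Against miR-92a-3p, miR-25-3p has U1C, C14U and C18U over 21 bases. Among 1005 mouse hairpins in the RefSeq table, none but its own holds any of the 6 mature sequences of the cluster. The nearest other mature sequence is 3 edits away for miR-93-5p, 4 for miR-25-3p and 5 for miR-106b-5p. Full-length reads of the members thus do not match a second one of these hairpins exactly. The 2202 counted genes include others, which were not searched.

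Library totals ranged from 213418 to 1681148 counts, and 560 of the 2202 genes had a count. The spread between libraries was estimated largely over all genes (36.6 prior against 4 residual degrees of freedom), so very small p-values rest only in part on a gene's own libraries. The lymphoid and blood list (Mir150, Mir155, Mir342, Mir146 and Mir142) took 29.8% to 46.1% of the counts, with Mir142 at no count. Mir223, the myeloid marker, took 1.15% to 2.94% of resting and 0.0695% to 0.339% of proliferating libraries, so it moved with the cell state. Its part in the differences between the states below was not tested. Erythroid miRNAs, without Mir451a, which could not be assigned here, moved with the state too, at no more than 0.0259% of a library. The endothelial Mir126a stayed at or below 0.176%, the 5 epithelial miRNAs at or below 0.209%, the hepatocyte Mir122 at or below 0.00796% and the 6 stromal and muscle miRNAs, of which Mir199a-2 and Mir214 had no count, at or below 0.00809%. Of these, the 5 epithelial miRNAs together also moved with the state, at 0.109% to 0.209% of resting and 0.038% to 0.0759% of proliferating libraries. Mir126a moved the other way, at 0.00613% to 0.0253% and 0.0626% to 0.176%. Singly, 2 of the 5 epithelial miRNAs were higher in resting input and all 5 in resting IP (edgeR adjusted p under 0.05). Of all genes tested, 23.3% and 23.7% were. Resting and proliferating cells were counted in separate tables, so cell state and table cannot be told apart.

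The cluster took a large part of all miRNA counts, and more in proliferating cells and in the IP. It held 9.07% and 9.12% of the resting inputs and 13.2% and 15.1% of the resting IPs. Proliferating inputs gave it 18.4% and 18.6%, and proliferating IPs 29.6% and 30.5%. The 4 groups of 2 did not overlap in this share, and their means were 9.09% ± 0.036, 14.1% ± 1.34, 18.5% ± 0.15 and 30.1% ± 0.65 (SD, n = 2 each). The exact 95% binomial (Clopper-Pearson) intervals of these shares are at most 0.33 percentage points wide, and cover counting error only. These shares, and the ranks below, are of the deposited counts, where Mir142 of the lymphoid and blood list had none. They also depend on how reads that match several places were counted, which the sources used do not state. In the second proliferating IP, Mir19b-1 and Mir19b-2, copies of 1 miRNA, had 12 and 182 counts, and Mir19a had 6717. Mir92-1 and Mir92-2, also copies of 1 miRNA, had 102524 and 5535.

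**Figure D1:**
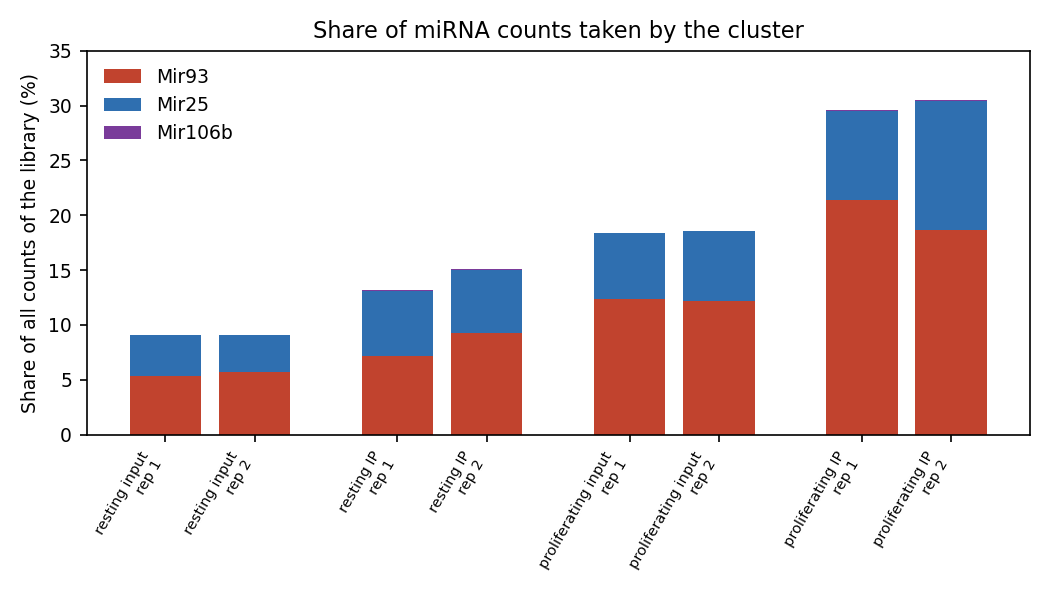
Stacked bars give the share of all miRNA counts in each of the 8 libraries (y axis, percent) that falls in Mir93, Mir25 and Mir106b. The whole bar rises from 9.07% in a resting input to 30.5% in a proliferating IP, and Mir106b is too rare to be seen.

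Over all 8 libraries, the 4 resting libraries held less of it than the 4 proliferating ones (11.6% against 24.3%, a difference of -12.7 percentage points). The groups did not overlap, and p = 0.0286 in the exact 2-sided permutation test is the smallest that 70 divisions allow. It does not pass after Benjamini-Hochberg adjustment over the 12 such tests made (adjusted p = 0.114). With 8 libraries this adjustment could hardly be passed, since most of the 12 tests would have to reach the smallest p. That holds for each of these tests below. The test counts all 8 libraries as independent. Input and IP of the same number may come from the same cells, which the labels do not say. The IPs held 8.3 percentage points more than the inputs (exact permutation p = 0.171, adjusted p = 0.386), with overlapping groups because the cell states differ. Within resting cells this difference was 5.03 and within proliferating cells 11.6 percentage points. With 2 libraries against 2 the exact test cannot go below p = 0.333, so neither was tested alone.

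The hairpins contributed very unequally to the counts, and how counts of different miRNAs relate to molecules was not measured. Mir93 made up 54.3% to 72.2% of the cluster's counts, Mir25 27.7% to 45.4% and Mir106b 0.142% to 0.305%. Per nucleotide of feature length, Mir93 had 166 to 473 times and Mir25 145 to 243 times the counts of Mir106b. Mir93 exceeded Mir25 in each library, by 1.14 to 2.49 times per length. The order was Mir93, Mir25 and then, far below, Mir106b in every library. Among all features, Mir93 ranked between 1 and 6 by counts, Mir25 between 3 and 8, and Mir106b between 59 and 97. Mir93 ranked first in both proliferating IPs.

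Mir93, the member with the most counts, was lowest in the resting inputs and highest in the proliferating IPs. Levels here are CPM, the counts of a gene scaled to a library of fixed size, with TMM factors that correct for the makeup of a library. Resting inputs had 53717 and 54325 CPM of Mir93, and resting IPs 89649 and 97592. Proliferating inputs had 96569 and 91342 CPM, and proliferating IPs 248489 and 217967. The resting IPs and the proliferating inputs overlapped, and every other pair of groups was apart. With 2 libraries in each group, being apart is a description, here and for the other genes, and not a test. The group means were 54021 ± 430, 93621 ± 5616, 93956 ± 3696 and 233228 ± 21582 CPM (SD, n = 2 each).

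Mir25, the gene of the miR-92a-related member, followed the same order of groups except that the resting IPs lay above the proliferating inputs. Resting inputs had 37061 and 32039 CPM of Mir25, and resting IPs 75045 and 61241. Proliferating inputs had 46483 and 47477 CPM, and proliferating IPs 95283 and 137342. No groups overlapped. The means were 34550 ± 3551, 68143 ± 9761, 46980 ± 703 and 116312 ± 29740 CPM (SD, n = 2 each), and the proliferating IPs had the widest spread.

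Mir106b was low throughout and varied more between replicates. Resting inputs had 89 and 70 raw counts of Mir106b (249 and 172 CPM), and resting IPs 676 and 184 (504 and 246 CPM). Proliferating inputs had 91 and 90 raw counts (257 and 316 CPM), and proliferating IPs 335 and 842 (490 and 714 CPM). The resting IPs overlapped with each of the other groups, and the second of them lay below the first resting input. The means were 210 ± 55, 375 ± 183, 286 ± 42 and 602 ± 158 CPM (SD, n = 2 each).

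**Figure D2:**
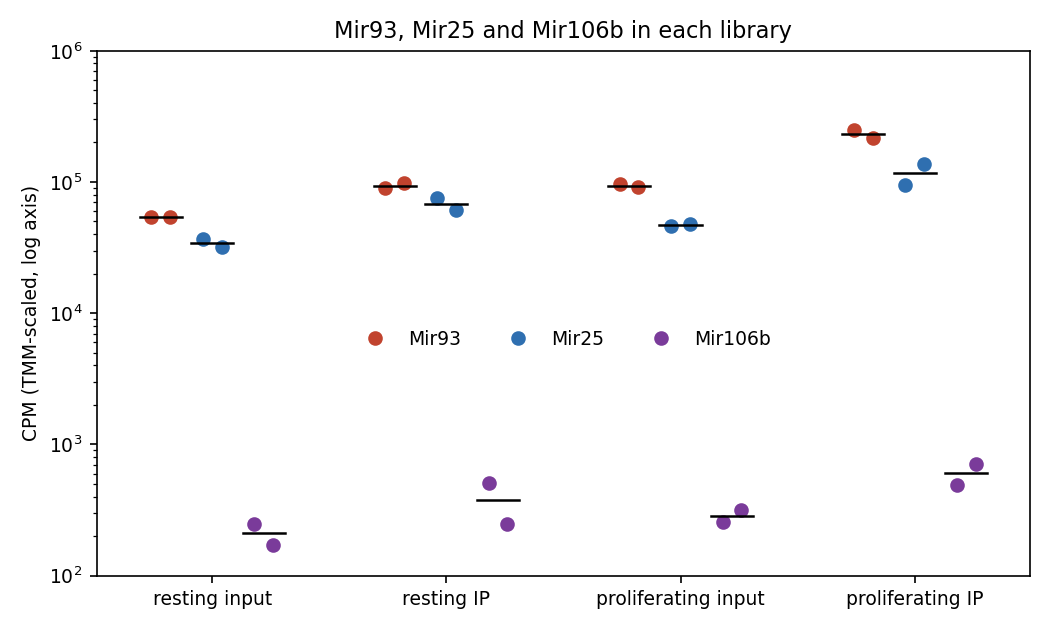
Points give the CPM (TMM-scaled, log axis) of Mir93, Mir25 and Mir106b in each library of the 4 groups, and lines give the group means. Mir93 lies between 53717 and 248489 CPM, Mir25 between 32039 and 137342, and Mir106b between 172 and 714.

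The first comparison asks which miRNAs AGO2 carries out of proportion to their level in the cell. In resting cells Mir25 and Mir93 were higher in the IP than in the input, by log2 0.98 (SE 0.23, edgeR adjusted p = 7e-04) and log2 0.79 (SE 0.21, adjusted p = 0.0027). Mir106b differed by log2 0.84 (SE 0.39, edgeR adjusted p = 0.095), which does not pass, and its groups overlapped. So 2 of the 3 members rose and none fell, where 13.2% of all 219 genes tested were higher and 15.5% lower at an adjusted p under 0.05. The median over the 3 members was log2 0.84, and over all genes log2 -0.05. Without the first resting IP, Mir106b was at log2 0.16 (edgeR adjusted p = 0.84). Without the second it passed (log2 1.02, adjusted p = 0.047), and Mir93 was at log2 0.49 and still called.

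In proliferating cells all 3 members were higher in the IP. Mir93 rose by log2 1.31 (SE 0.21, edgeR adjusted p = 5.1e-06) and Mir25 by log2 1.31 (SE 0.23, adjusted p = 2.2e-05). Mir106b rose by log2 1.08 (SE 0.38, edgeR adjusted p = 0.031). Of all genes tested 13.2% were higher here and 13.7% lower, and the median was log2 0.11 against 1.31 for the members. The calls of Mir93 and Mir25 held under each of the alternatives run, although with library totals in place of TMM factors they were log2 0.70 each. That of Mir106b is lost without the first resting input (log2 0.79), either proliferating input (log2 0.84 and 0.87) or the second proliferating IP (log2 0.73), and with library totals (log2 0.46), upper-quartile factors (log2 0.91), no filter (log2 0.97) or TMM factors computed without the members (log2 0.996).

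The fold of IP over input had a lower estimate in resting cells for each member, but no member's difference between the states passed the test. The difference, resting minus proliferating, was log2 -0.52 for Mir93 (SE 0.29, edgeR adjusted p = 0.24), log2 -0.33 for Mir25 (SE 0.32, adjusted p = 0.53) and log2 -0.23 for Mir106b (SE 0.54, adjusted p = 0.81). Of all genes, 17.4% passed in this test, and its median was log2 -0.17. Mir93 passed without the second resting IP (log2 -0.87, edgeR adjusted p = 0.0021) and Mir25 without the first proliferating IP (log2 -0.80, adjusted p = 0.048). The direction turned without the second proliferating input, for Mir93 to log2 0.091, for Mir25 to 0.23 and for Mir106b to 0.16. It also turned without the first resting input for Mir25 (0.26) and Mir106b (0.50), without the second proliferating IP for Mir25 (0.092) and Mir106b (0.18), and without the first proliferating input for Mir106b (0.19). The median of all genes in this test moved as well, by log2 0.71 without the second proliferating input, 0.61 without the first resting input and 0.26 without the second proliferating IP.

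The second comparison asks how the level of each miRNA differs between quiescent and dividing cells. In the input, Mir93 was lower in resting cells by log2 -0.80 (SE 0.21, edgeR adjusted p = 0.0017). Mir25 differed by log2 -0.44 (SE 0.23, adjusted p = 0.098) and Mir106b by log2 -0.44 (SE 0.39, adjusted p = 0.35), which do not pass. One of 3 members was thus lower, where 26% of all genes were lower and 23.3% higher. The call of Mir93 was lost with upper-quartile factors (log2 -0.43, edgeR adjusted p = 0.12), and Mir25 passed with library totals (log2 -0.80, adjusted p = 0.0036) and without the second proliferating IP (log2 -0.44, adjusted p = 0.045). In bulk RNA, fewer cells with a miRNA and less of it per cell cannot be told apart.

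In the IP, Mir93 was lower on resting AGO2 by log2 -1.32 (SE 0.21, edgeR adjusted p = 1.2e-06) and Mir25 by log2 -0.77 (SE 0.23, adjusted p = 0.004). Mir106b differed by log2 -0.68 (SE 0.37, adjusted p = 0.12) with overlapping groups. So 2 of 3 members were lower, where 28.3% of all genes were lower and 23.7% higher, with a median of log2 -0.21 over all genes and -0.77 over the members. The call of Mir93 held under every alternative run, at its smallest log2 -0.67 with upper-quartile factors, log2 -0.877 without the first resting input and -0.885 without the second proliferating input. That of Mir25 is lost without either resting input (log2 -0.33 for the first and -0.49 for the second), without either proliferating input (log2 -0.46 and -0.33), without the second proliferating IP (log2 -0.35) and with upper-quartile factors (log2 -0.09, edgeR adjusted p = 0.74). Without these libraries the median of all genes moved up too, by log2 0.35 and 0.17 for the resting inputs, 0.32 and 0.43 for the proliferating inputs and 0.25 for the second proliferating IP, and by 0.67 with upper-quartile factors. Mir106b passed without the first resting IP (log2 -1.20, adjusted p = 0.023). The comparisons share libraries, so their calls are not independent of each other.

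The ratio of the hairpins within a library needs no scaling. The log2 ratio of Mir93 over Mir25 counts averaged 0.65 ± 0.16 over the resting inputs and 0.46 ± 0.29 over their IPs, and 1.0 ± 0.078 over the proliferating inputs and 1.02 ± 0.51 over their IPs (SD, n = 2 each). The resting minus proliferating difference was -0.46, and the groups overlapped (exact permutation p = 0.0857, adjusted p = 0.257). The largest ratio and one close to those of the resting libraries came from the 2 proliferating IPs, at 1.38 and 0.67. For IP against input the same ratio differed by -0.08 (exact permutation p = 0.8, adjusted p = 0.873). Ratios of Mir106b over Mir93 and over Mir25 gave exact permutation p-values from 0.2 to 1 in the 4 tests made, with adjusted p-values from 0.386 to 1.

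The relatives that share a seed with the members came next. In the miR-17 seed family, 7 features carry the seed, 2 of them in the cluster and 5 outside, of which Mir6383 had no count. Mir93 alone gave 88.6% to 94.9% of the family's counts in each library. Mir106b gave 0.179% to 0.534%. Mir17, the founding member of Mir17-92, gave 0.504% to 2.04%, Mir20a 2.39% to 4.5%, Mir20b 1.42% to 4.04% and Mir106a 0.18% to 0.617%. These are shares of hairpin counts, both arms together, and not counts of the seed-bearing arm.

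The cluster's part of the miR-17 seed family was 92.9% and 93.7% in the resting inputs, and their IPs gave 95.4% and 94.6%. Proliferating inputs gave 90.4% and 90.1%, and their IPs 91.0% and 88.9%. Each of the 4 resting libraries lay above each of the proliferating ones. The difference was 4.05 percentage points (94.1% against 90.1%, exact permutation p = 0.0286, the smallest possible, adjusted p = 0.114), which does not pass after adjustment. The 4 tested relatives outside the cluster, Mir17, Mir20a, Mir20b and Mir106a, were all lower in resting cells, in the input with a median of log2 -1.42 and in the IP with a median of log2 -2.71 by edgeR. Over all 219 genes 26% and 28.3% were lower, with medians of log2 -0.04 and -0.21. These 4 calls held under all 15 alternatives in both fractions.

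Mir17 is given in full, as the gene after which the family is named. Resting inputs had 938 and 882 CPM of Mir17, and resting IPs 476 and 590. Proliferating inputs had 2038 and 2034 CPM, and proliferating IPs 3882 and 5012. In proliferating cells it was thus higher in the IP than in the input (log2 1.13, SE 0.29, edgeR adjusted p = 0.003), and in resting cells lower (log2 -0.77, SE 0.29, adjusted p = 0.042), and the difference between the states passed (log2 -1.90, SE 0.41, adjusted p = 0.0012). The call in resting cells is lost without any of 6 libraries, namely either resting input (log2 -0.51 and -0.67), the first resting IP (-0.69), either proliferating input (both -0.53) and the second proliferating IP (-0.66), with the replicate block (log2 -0.78, adjusted p = 0.054), and with RLE or upper-quartile factors, no filter or DESeq2. The call in proliferating cells is lost without either proliferating input (log2 1.04 and 0.78) and with library totals (log2 0.52). The difference is lost without the first resting input (log2 -1.36), or either proliferating input (log2 -1.57 and -1.30). Mir93, with the same seed, had log2 0.79 in resting cells. So did Mir20a nearly (log2 0.81, SE 0.27, edgeR adjusted p = 0.02), at log2 0.61 with library totals and 0.27 without the second resting IP. Mir20b and Mir106a were not called there (log2 0.25 and 0.05). Of the 4 tested relatives outside the cluster, 1 was thus higher and 1 lower, where 13.2% of all genes were higher and 15.5% lower. Whether Mir17 and Mir93 differ was not tested.

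In the miR-25 seed family, Mir25 gave 55.1% to 70.2% of the counts and Mir92-1, of Mir17-92, 27.4% to 41.7%. Mir92-2 gave 1.38% to 2.6%, and Mir32, Mir92b and Mir363 at most 1.52% each. Mir367 had no count. Mir25 therefore shared its seed with a relative that took a large part of the family's counts, unlike Mir93. These shares depend on how reads of miR-92a-3p, which Mir92-1 and Mir92-2 both give, were counted. That is not stated in the sources used.

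Mir25 made up 70.2% and 69.6% of this family in the resting inputs, and 59.4% and 60.4% in their IPs. Proliferating inputs gave 61.5% and 63.0%, and their IPs 55.1% and 59.8%. Every IP lay below every input. The difference was -7.38 percentage points (58.7% against 66.1%, exact permutation p = 0.0286, the smallest possible, adjusted p = 0.114), which does not pass after adjustment. Within resting cells it was -9.99 and within proliferating cells -4.77 percentage points.

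**Figure D3:**
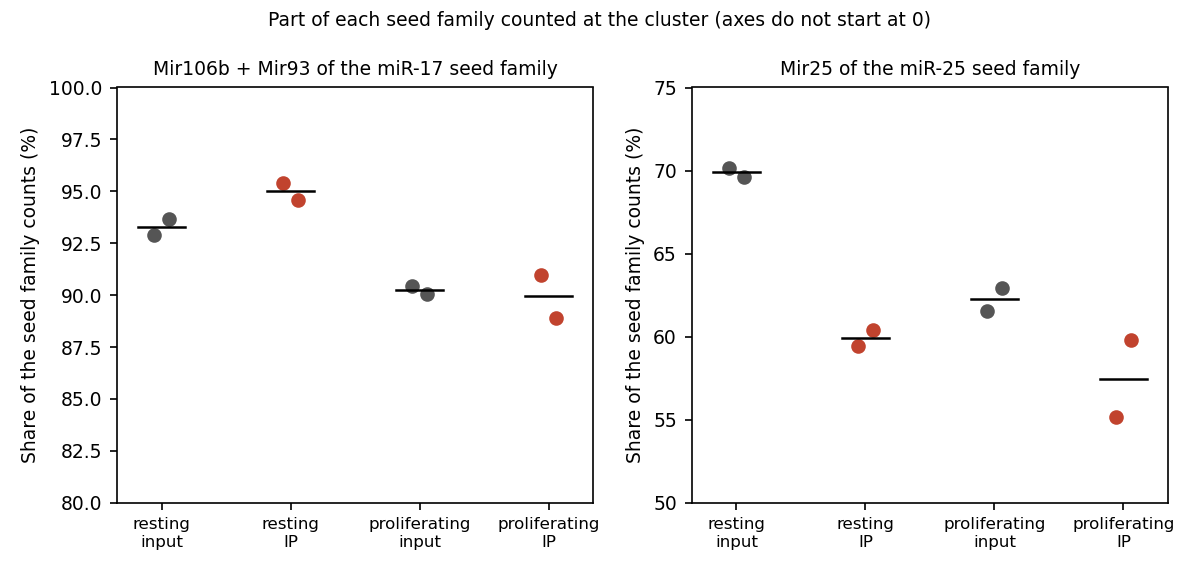
Points give, for each library of the 4 groups, the percent of the miR-17 seed family counts from Mir106b and Mir93 (left) and of the miR-25 seed family counts from Mir25 (right), with lines at the group means; the axes do not start at 0. Resting libraries lie above proliferating ones on the left, at 92.9% or more against 91.0% or less, and inputs lie above IPs on the right, at 61.5% or more against 60.4% or less.

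Resting inputs had 14468 and 12803 CPM of Mir92-1, and resting IPs 46811 and 36184. Proliferating inputs had 26530 and 25764 CPM, and proliferating IPs 72067 and 86929. Input and IP were apart in both states. Mir92-1 was higher in the IP than in the input by log2 1.61 in resting and 1.60 in proliferating cells (SE 0.23 each, edgeR adjusted p = 7.9e-07 and 9.3e-07), set beside 0.98 and 1.31 for Mir25.  Mir32, an intronic miRNA with the same seed, was higher in the resting IP than in its input by log2 2.06 (SE 0.36, edgeR adjusted p = 1.9e-05). In proliferating cells this difference was log2 0.25 (SE 0.37, adjusted p = 0.66). Of the 5 tested relatives outside the cluster, Mir32 was the exception between the states too. It was higher on resting AGO2 by log2 2.54 (SE 0.37, edgeR adjusted p = 1.9e-07), where the other 4 were lower, against 28.3% of all genes lower and 23.7% higher. The number lower there fell to 1 without the first resting input, without the second proliferating input or with upper-quartile factors, and to 2 without the second resting input.

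The features of the paralogous clusters were mostly higher in the proliferating IP and lower in resting cells. Of the 6 features of Mir17-92, 4 were higher in the IP of proliferating cells and 3 in that of resting cells, where 1, Mir17, was lower. Of the 6 of Mir106a-363, 4 and 1 were higher. Of all genes, 13.2% were higher in each state's IP, a share to which 1 of 6 is close. In resting cells, 5 of 6 of each cluster were lower in the input, and all 6 of each in the IP, with medians of log2 -2.42 and -2.60 in the IP. The shares of all genes were 26% in the input and 28.3% in the IP. The median over the 3 members was log2 -0.77 in the IP, where they lay between log2 -1.32 and -0.68. Mir92-1 (log2 -0.94) and Mir92-2 (log2 -0.93) lay within that range. Mir19a was at log2 -1.48, and the other features of both clusters were lower still. The median of Mir17-92 includes Mir19b-1, at log2 -5.00 with few counts. Over the alternatives, 5 to 6 features of Mir17-92 and 4 to 6 of Mir106a-363 were lower in the resting IP. In the input, Mir17-92 fell to 3 lower without the second resting input, which also left 1 of its features higher in the resting IP, as did library totals. In the proliferating IP, 2 features of each cluster were higher without the second proliferating input. For Mir106a-363 that number was 2 also without the first resting input or the second proliferating IP, with library totals and with no filter, and 2 were higher in the resting IP without either proliferating input. Mir19b-1 and Mir19b-2, copies of one miRNA, had few counts and are uncertain, and the difference between the clusters was not tested.

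**Figure D4:**
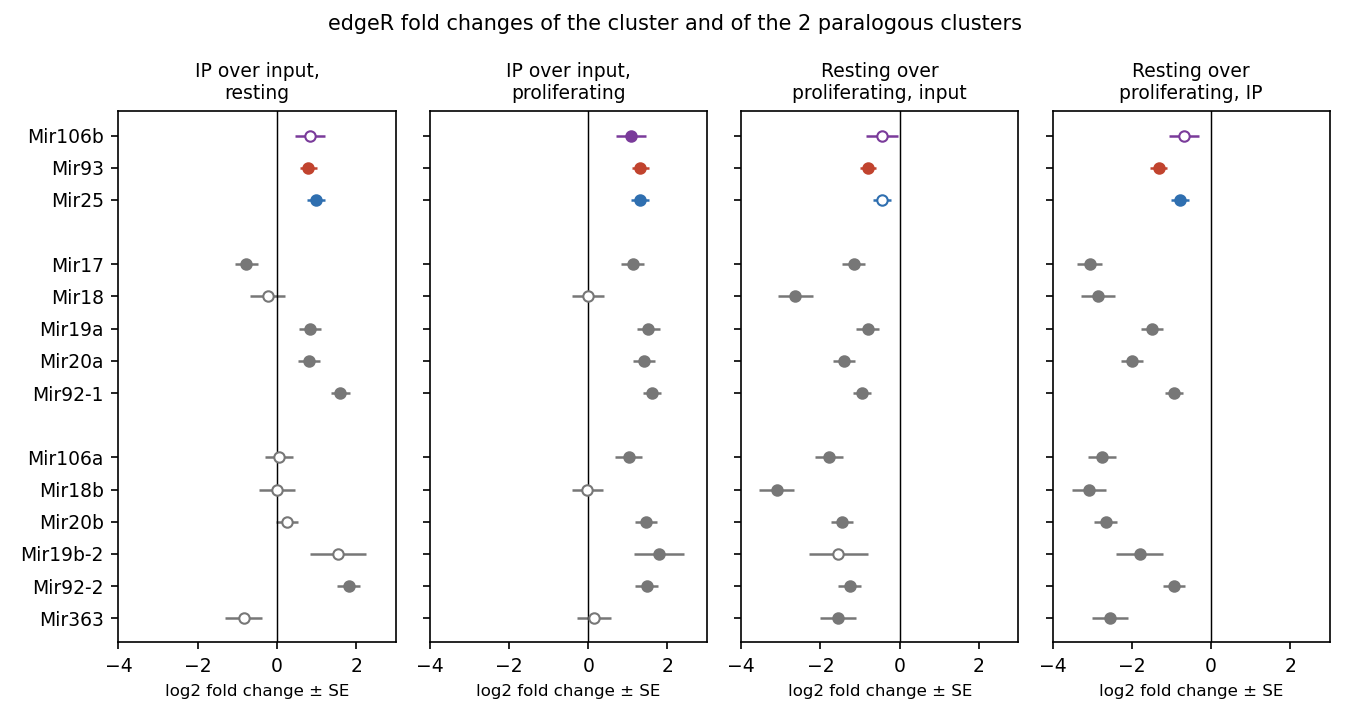
Points give edgeR's log2 fold change and bars its SE for the 3 members (coloured) and the features of the paralogous clusters (grey; Mir19b-1, with few counts, is left out) in 4 comparisons, filled where the adjusted p is under 0.05. In the right panel, resting over proliferating IP, the members lie between log2 -1.32 and -0.68. Mir92-1 (-0.94) and Mir92-2 (-0.93) lie in that range, and Mir17 lies at -3.06.

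The likeness of patterns over the 8 libraries was taken as Pearson's r of log2 CPM against the 116 other tested genes with a mean of at least 100 CPM. It is a description, since the points share groups and depth. Mir93 was most like Mir19a (r = 0.983), Mir20a (0.971), Mir221 (0.970), Mir92-2 (0.941) and Mir92-1 (0.934). Mir25 was most like Mir92-1 (0.983), Mir92-2 (0.955), Mir19a (0.946), Mir221 (0.933) and Mir21a (0.894). Mir106b was most like Mir92-1 (0.906), Mir19a (0.894), Mir221 (0.876), Mir92-2 (0.862) and Mir148b (0.834). The order depends on the measure. Among those listed, Mir20a is first for Mir93 with library totals (r = 0.986, against 0.976 for Mir19a) and by Spearman's rho (0.881, against 0.714), and Mir19a is first for Mir106b by each (0.874 and 0.952). Among themselves, Mir106b and Mir25 had r = 0.933, Mir93 and Mir25 0.907, and Mir106b and Mir93 0.804.

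The members share a promoter with their host gene, and its letters are given here. Its part in the fold changes above was not tested. Mcm7 RNA was not measured here. The stretch covers bases -175 to 30 around an annotated start of Mcm7 (chr5:138171854-138172058, minus strand, RefSeq GRCm38.p6), with matches to E2F site letters in capitals. It lies inside the gene span given above, whose 5′ end on this strand is 138172111, so this start is not that end.
Mcm7 promoter: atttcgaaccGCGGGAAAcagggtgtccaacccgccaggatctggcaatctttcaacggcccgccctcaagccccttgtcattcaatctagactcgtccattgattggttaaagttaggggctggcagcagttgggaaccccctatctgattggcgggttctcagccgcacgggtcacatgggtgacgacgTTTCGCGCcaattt

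The letters searched, on both strands, were TTTCGCGC, TTTGGCGC, TTTCCCGC and TTTGCCGC. TTTCGCGC begins at base 17 after the start on the transcribed strand, and TTTCCCGC lies on the other strand with its leftmost base at -165. Of 32851 promoter windows of the same length (250 bases before to 50 after a start), 744 (2.26%) hold at least 1 of these. CCAAT, the box bound by NF-Y, occurs 3 times in the window, once overlapping the last base of TTTCGCGC, and 37.4% of windows hold it. CACGTG, the E-box bound by Myc, is not in this window, and 7.15% of windows hold it. A second annotated start of Mcm7 has no match to the E2F letters in its window. A match is a description of the letters, and binding was not measured here.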

How the data were processed

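Small RNA from inputs and anti-HA AGO2 IPs of mouse spleen B cells was sequenced single-end, all 8 libraries in one pool, per the labels' protocols. Per the submitters' processing notes, STAR 2.7.9a, SAMtools 1.15 and the mm10 build were used. The authors deposited whole-number counts per hairpin, from alignments marked as deduplicated, per the file headers. How reads were deduplicated and counted, by strand or at several places, is not stated in the sources used. Features were named by matching coordinates to RefSeq genes (1179 of 2202 named).

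Genes were kept with filterByExpr (minimum count 10), leaving 219. A quasi-likelihood model of the 4 groups was fitted to all 8 libraries with edgeR 4.0.16 (R 4.3.3) and TMM factors (0.797 to 1.34). Each of 5 contrasts was tested 2-sided over all 219 genes with Benjamini-Hochberg adjustment (threshold 0.05), after the script was tested on simulated data. CPM use the same factors, and correlations a prior count of 2. SE is the size of the log2 fold change over the square root of the F statistic. Shares and ratios were compared by exact permutation of 4 against 4 libraries, counted as independent although input and IP of the same number may share cells.

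The members and all lists were chosen with earlier results of these data known. Named genes are the 3 members, genes with the same seed, the features of both paralogous clusters, and the 5 genes most like each member. The 2 libraries of every group differed by more than counting noise (chi-square over its degrees of freedom at least 8.57). Alternatives were RLE, upper-quartile or no factors, TMM without the members, no filter, DESeq2 1.42.0, the replicate block, and leaving out each library.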

Additional observations from a re-analysis of the deposited data

How the results depend on the processing

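Of 225 member results under an alternative, 193 kept their direction and side of the threshold, 15 lost the call, 6 gained one and 11 turned direction; for those listed here the cause was not tested. Upper-quartile factors moved the median of all genes by up to log2 0.67 (resting over proliferating IP) and library totals by up to -0.61 (IP over input, proliferating), so changes are read against these shifts. Leaving out a library moved it as much, by up to 0.71 in the difference of IP enrichment and up to 0.43 in resting over proliferating IP (both without the second proliferating input). Mir106b, IP over input in proliferating cells (main log2 1.08), was 0.91 with upper-quartile factors, 0.46 with library totals, 0.996 with TMM without the members and 0.97 with no filter. Its difference of IP enrichment was 0.10 and 0.11 with upper-quartile factors and library totals, and that of Mir25 was 0.039 with library totals. Resting over proliferating input was -0.43 for Mir93 with upper-quartile factors and -0.80 for Mir25 with library totals, and resting over proliferating IP was -0.09 for Mir25 with upper-quartile factors. The genes called for the difference of IP enrichment fell from 38 to 25 with RLE and 22 with upper-quartile factors.

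Leaving out 1 library at a time, Mir106b ranged from 0.16 to 1.29 (IP over input, resting), 0.73 to 1.38 (proliferating), -0.97 to 0.50 (difference), -0.76 to -0.11 (resting over proliferating input) and -1.20 to -0.26 (resting over proliferating IP). Mir93 ranged from -0.87 to 0.091 in the difference. Mir25 ranged from -0.80 to 0.26 (difference), -0.58 to -0.22 (resting over proliferating input) and -1.04 to -0.33 (IP). Genes called ranged from 30 to 63 for IP over input in proliferating cells and from 11 to 46 for the difference, lowest without a proliferating input. Some ratios turned too: Mir93 over Mir25 for IP against input ranged from -0.29 to 0.083, Mir106b over Mir93 for IP against input from -0.43 to 0.078, Mir106b over Mir25 for resting against proliferating from -0.092 to 0.16, and the cluster's share of the miR-17 seed family for IP against input from -0.27 to 1.90 percentage points.

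Same-numbered libraries of 2 groups deviated together with r from -0.12 to 0.18, and the numbers were not taken as pairing. A low r cannot show that such libraries come from different cells, because other differences between libraries may hide a pairing. With the replicate block, Mir93 rose by log2 1.31 and Mir106b by 1.09 in the proliferating IP, and no call of a member changed. Mir106b had only 70 to 91 counts in an input, and its resting IPs differed by more than their counting intervals.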
